A study of Mus musculus with 19 samples.

Results

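The miR-30 family was followed through 19 small RNA libraries of mouse sperm. Its 6 annotated genes, Mir30a, Mir30b, Mir30c-1, Mir30c-2, Mir30d and Mir30e, are among the 2198 GENCODE miRNA hairpins that were searched. A read was assigned to a gene when it was 20 to 24 nt long and matched the sense strand of that hairpin with at most 1 mismatch. Only the best match was kept, and a read that matched several hairpins equally well was divided equally among them. All 6 genes had reads. The reads fall on the 2 arms of each hairpin, called 5p and 3p. Arms of which 1 shared most of its reads with the other were joined, which left 10 arms to describe. Mir30c-1 and Mir30c-2 give the same 5p miRNA, called miR-30c-5p here. The few reads on the 3p arm of Mir30d were joined to those of miR-30a-3p as miR-30a/d-3p.

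Sperm came from the cauda epididymis of wild type C57BL/6J males that were 8 weeks old when treatment began. The males received corn oil (control) or dicyclohexyl phthalate (DCHP), a plasticizer, at 10 mg/kg per day by oral gavage for 4 weeks. Somatic cells were lysed before the RNA was extracted, and RNA of 15 to 50 nt was cut from a gel. Traditional libraries were made from this RNA directly. PANDORA-seq libraries were made after treatment with AlkB, an enzyme that removes several methyl groups from RNA bases, and T4PNK, which repairs RNA ends so that adapters can be joined to them. There were 4 PANDORA-seq control, 5 PANDORA-seq DCHP, 5 traditional control and 5 traditional DCHP libraries. The labels carry the word DCHP as the treatment of every library, so control and treated libraries were told apart by their titles. The study describes its PANDORA-seq libraries as biological replicates of mice. For the traditional libraries the labels do not say whether they came from separate males, and their p-values measure only the spread between these libraries.

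miRNAs are cut from hairpin transcripts, first by Drosha in the nucleus and then by Dicer in the cytoplasm, and one strand of the resulting duplex is loaded onto an Argonaute protein. The loaded strand finds its targets mainly through its seed, bases 2 to 8. Members of the miR-30 family share the seed of the 5p arm, are expressed in many epithelia, and have been studied in kidney, heart and adipocytes. miR-30 miRNAs have also been measured in rodent sperm in work on paternal exposures.

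The RefSeq mature miRNAs (GRCm38.p6) of the 4 genes found in that table are given below, since the sharing of reads and the arm-specific seeds both follow from them. The letters run 5′ to 3′ and the seed is in capitals.
mmu-miR-30a-5p: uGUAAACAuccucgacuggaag
mmu-miR-30e-5p: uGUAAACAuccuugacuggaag
mmu-miR-30c-5p: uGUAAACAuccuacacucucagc
mmu-miR-30a-3p: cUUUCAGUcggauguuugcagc
mmu-miR-30e-3p: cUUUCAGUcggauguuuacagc
mmu-miR-30c-1-3p: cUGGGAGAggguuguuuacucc
mmu-miR-30c-2-3p: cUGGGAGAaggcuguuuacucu
The 3 different 5p sequences have 1 seed. The 3p arms fall into 2 seed groups, Mir30a with Mir30e and Mir30c-1 with Mir30c-2. Counting from 1 at the 5′ end, miR-30e-5p differs from miR-30a-5p by C13U and miR-30e-3p differs from miR-30a-3p by G18A, so that each pair is told apart by 1 base. miR-30c-2-3p differs from miR-30c-1-3p by G9A, U12C and C22U. Mir30b and Mir30d are named only.

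The genes lie in 3 pairs (GRCm38). Mir30a is at chr1:23272269-23272339 on the plus strand, outside other annotated genes, and Mir30c-2 lies 19361 nt downstream at chr1:23291701-23291784 in an exon of the lincRNA gene Gm27028. Mir30b (chr15:68337415-68337510) and Mir30d (chr15:68341208-68341289) are on the minus strand, 3697 nt apart, in exons of non-coding transcripts. Mir30c-1 (chr4:120769534-120769622) and Mir30e (chr4:120772606-120772697) are on the minus strand, 2983 nt apart, in introns of Nfyc, which encodes a subunit of the CCAAT-binding factor NF-Y. Mir30e also overlaps Mir30f, annotated on the other strand.

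Libraries held 21588335 to 56506344 reads. In traditional libraries 979716 to 8195816 of them were 20 to 24 nt hairpin reads, and in PANDORA-seq libraries 33684 to 99640. In PANDORA-seq 1 hairpin, Mir6240, took 27.8 to 73.6% of these reads, against 0.0722 to 0.567% in traditional libraries. Levels are therefore given as RPM, reads per 1000000 hairpin reads of 20 to 24 nt. Where the methods are compared, they are also given relative to the 20 to 24 nt reads on the 453 hairpins on which at least 50% of the reads had that length (5816 to 46900 reads in PANDORA-seq libraries), called the narrow total. Mir122, the main miRNA of liver, held 13528 to 429253 RPM in traditional libraries and 2184 to 82467 in PANDORA-seq libraries. All 11 listed testis and germ cell miRNAs had reads in traditional libraries of both groups, 9 of them in every library of each group, and their sum ranged from 9073 to 54683 RPM. All 6 listed epithelial miRNAs had reads in every traditional library, with a sum of 6059 to 46822. Of 7 listed blood miRNAs 5 were annotated, and their sum was 108 to 729. How much of the RNA came from cells other than sperm was not tested, and in such bulk libraries fewer cells of a type and less RNA per cell cannot be told apart.

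In traditional control libraries the family made up 2.50% ± 0.21 (SD, n = 5) of 20 to 24 nt hairpin reads. Mir30a supplied 54.4% ± 1.40 of the family's reads, Mir30d 19.1% ± 2.35, Mir30e 17.7% ± 4.17, Mir30c-2 5.16% ± 1.01, Mir30c-1 2.94% ± 0.40 and Mir30b 0.711% ± 0.117. Mir30a also supplied more than any other member in the other groups, with 52.2% ± 2.87 in traditional DCHP (n = 5), 55.2% ± 6.60 in PANDORA-seq control (n = 4) and 54.3% ± 6.13 in PANDORA-seq DCHP libraries (n = 5).

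By arm, miR-30a/d-3p averaged 7137 ± 2459 RPM in traditional controls (SD, n = 5) and miR-30a-5p 6494 ± 1765. miR-30d-5p followed with 4783 ± 958. The ranges of these 3 overlapped. miR-30e-3p averaged 2867 ± 912 and lay below miR-30d-5p in every control library. miR-30e-5p averaged 1508 ± 1737 and miR-30c-5p 1452 ± 230, and the range of miR-30e-5p, 199 to 4155, spanned both neighbours. The 3p arm of Mir30c-2 averaged 572 ± 219, below all values of miR-30c-5p. The arms of Mir30b, miR-30b-5p with 116 ± 36.5 and miR-30b-3p with 60.9 ± 20.5, overlapped, and miR-30c-1-3p came last with 9.43 ± 3.63. All arms are nearly equal in length, so these levels were compared without a length correction. How efficiently each sequence was ligated was not measured.

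**Figure D1:**
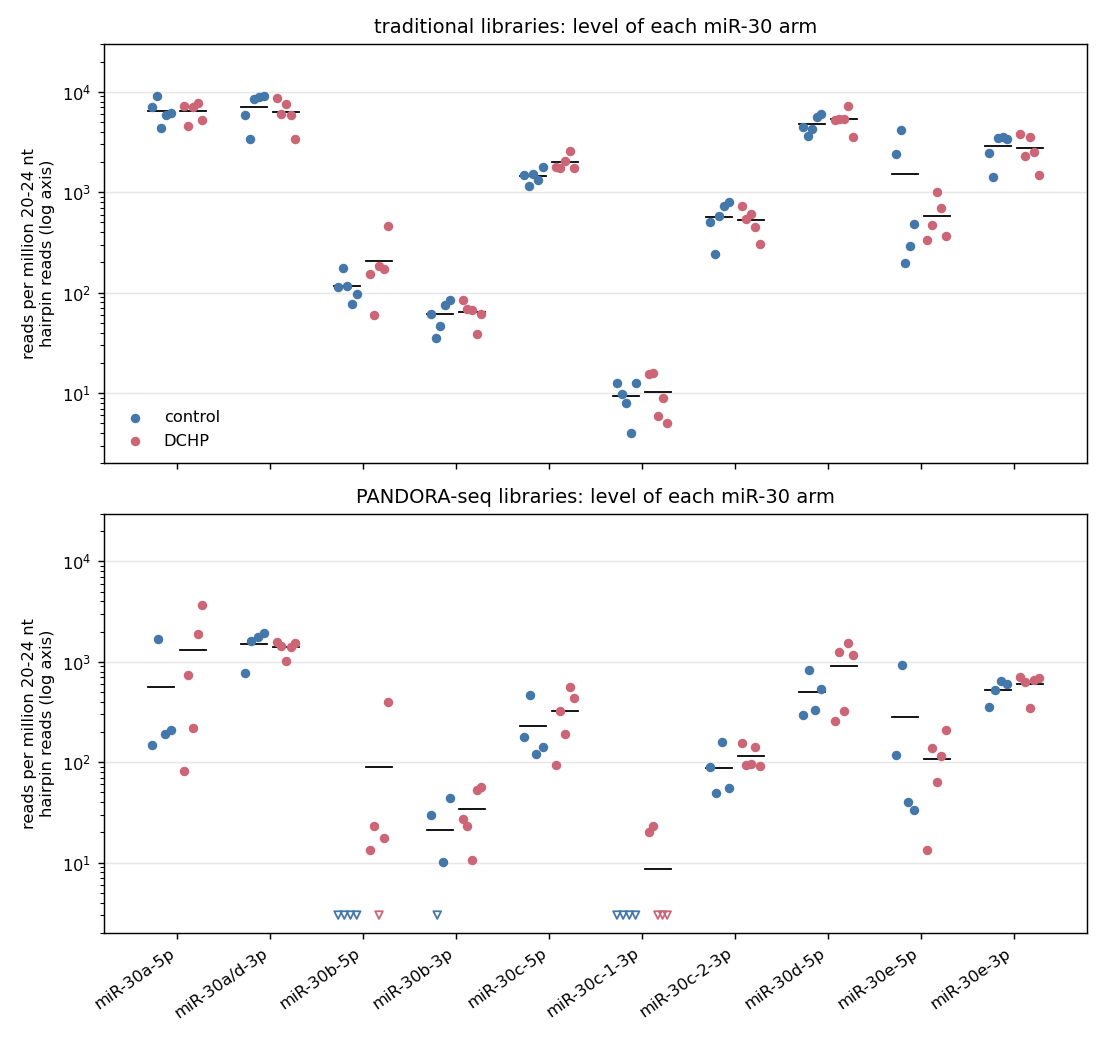
Level of each miR-30 arm in every library, in RPM on a log axis, with traditional libraries above and PANDORA-seq libraries below, 1 point per library, a line at each group's mean and open triangles for libraries with no read. In traditional controls the arms ran from miR-30a/d-3p, at 3423 to 9034 RPM, down to miR-30c-1-3p, at 4.00 to 12.7.

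The members of each genomic pair were not recovered equally. Mir30a had 7.28 to 15.2 times the reads of Mir30c-2 in traditional libraries (median 9.27, n = 10), Mir30d 6.72 to 42.0 times those of Mir30b (median 25.9) and Mir30e 2.09 to 9.44 times those of Mir30c-1 (median 4.49). In each pair and in every traditional library the same member had more reads. Because miR-30c-5p reads were divided equally between Mir30c-1 and Mir30c-2, the ratios that involve these genes rest in part on that division.

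The genes also differed in which arm was recovered. Mir30d reads were nearly all 5p, at 99.6% ± 0.16 in traditional control and 99.6% ± 0.07 in traditional DCHP libraries (n = 5 each). Mir30c-1 reads were 98.7% ± 0.46 and 98.9% ± 0.62 5p. Mir30c-2 was mixed, with 57.3% ± 8.73 and 65.6% ± 8.42 5p, and so was Mir30b, with 64.6% ± 13.4 and 70.8% ± 16.3. The miR-30c-5p reads were divided equally between Mir30c-1 and Mir30c-2, which gave each gene 10440.3 in traditional control and 11139.2 in traditional DCHP libraries. The 5p shares of these 2 genes therefore rest in part on that division. Mir30e leaned to the 3p arm in most libraries, with a 5p share of 17.8% ± 5.72 in traditional DCHP libraries. In the 5 traditional DCHP libraries its 5p share was 8.18, 17.0, 22.1, 21.7 and 19.9%. In traditional controls 1 to 5 it was 49.3, 74.4, 5.44, 7.56 and 12.4%. Controls 1 and 2 therefore lay above every other traditional library, and the other 3 controls lay within or below the range of the DCHP group. Mir30a shares followed the same order within the controls, with 54.9, 72.8, 34.0, 39.5 and 40.3%. In traditional DCHP libraries Mir30a gave 46.0, 43.4, 48.7, 57.01 and 61.1% and the groups overlapped.

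**Figure D2:**
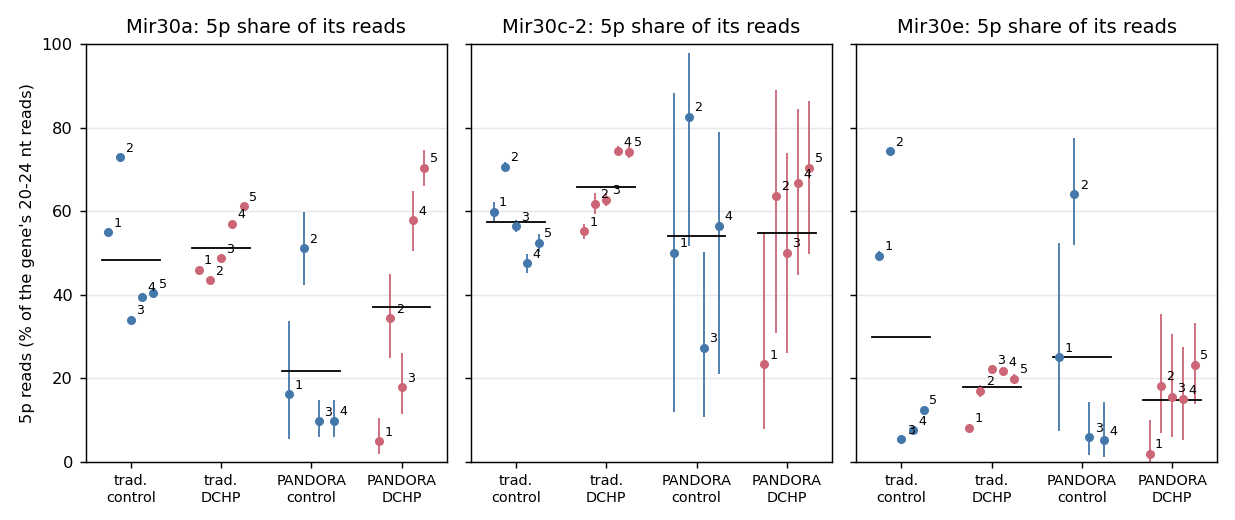
Share of the 20 to 24 nt reads of Mir30a, Mir30c-2 and Mir30e that lay on the 5p arm, in percent, with 1 numbered point per library, its exact binomial 95% interval and a line at the mean of each group. Mir30e ran from 5.44 to 74.4% in traditional controls, and control 2 was the highest control for Mir30a and Mir30e in both methods. The Mir30c-2 shares rest in part on the equal division of miR-30c-5p reads between Mir30c-1 and Mir30c-2.

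miR-30e-3p and miR-30a/d-3p kept almost the same proportion from library to library, and the 5p arms of Mir30e and Mir30a did not. The ratio of miR-30e-3p to miR-30a/d-3p was 0.379 to 0.474 over the 10 traditional libraries, a 1.25-fold range with a coefficient of variation of 6.84%. The ratio of miR-30e-5p to miR-30a-5p, which also compares sequences that differ by 1 base, was 0.0458 to 0.456, a 9.95-fold range with a coefficient of variation of 98.9%. The ratio of miR-30c-2-3p to miR-30a/d-3p was likewise narrow, at 0.0696 to 0.0907 in traditional libraries but 0.0287 to 0.115 in PANDORA-seq. The ratio of miR-30d-5p to miR-30a-5p was 0.403 to 1.19. In PANDORA-seq libraries, which had fewer reads, the ratio of miR-30e-3p to miR-30a/d-3p was 0.312 to 0.468 and that of miR-30e-5p to miR-30a-5p 0.0573 to 0.8 (n = 9). Genes and arms of 1 library are not independent, and these ranges are given as a description.

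The spread of the 5p ratio over the traditional libraries came mostly from miR-30e-5p. Its level in traditional controls 1 to 5 was 2411, 4155, 199, 290 and 487 RPM, from 3532, 34052.5, 689.5, 398.5 and 575 reads. In the DCHP libraries it was 336, 472, 1015, 702 and 368. miR-30e-3p, from the same hairpin, had its lowest control value, 1431, in control 2, where miR-30e-5p was highest. Per 1000000 reads of the whole library miR-30e-3p was instead at 107, 225, 242, 143 and 167 in controls 1 to 5, with control 2 second highest. Per hairpin read the marker miRNAs of liver and blood were also highest in controls 1 and 2, and the epithelial list was lowest there. Mir122 was at 236013, 429253, 26011, 18881 and 43933 RPM in traditional controls 1 to 5 and at 16388, 211173, 125559, 39995 and 13528 in the DCHP libraries. Controls 1 and 2 were the highest of the 10 libraries for both miRNAs, but DCHP library 2, with nearly the Mir122 level of control 1, had a miR-30e-5p level of only 472. In PANDORA-seq controls 1 to 4 miR-30e-5p stood at 119, 928, 40.1 and 33.1, from 4, 37.5, 4 and 3 reads. Mir122 stood there at 12142, 81412, 5811 and 5565. In PANDORA-seq DCHP libraries 1 to 5 miR-30e-5p stood at 13.5, 140, 63.3, 115 and 210, from 1, 6, 6, 6.5 and 18.5 reads. Mir122 stood at 2184, 82467, 6847, 14405 and 16224 in these libraries. The summed blood miRNAs, far lower in level, were at 359, 729, 123, 108 and 143 RPM in traditional controls 1 to 5 and at 111, 201, 271, 207 and 167 in the DCHP libraries. Controls 1 and 2 were again the 2 highest per hairpin read. The testis and germ cell list was lowest in control 2, at 9073 RPM, against 25021 to 54683 in the other traditional libraries. The epithelial list was at 12543 and 6059 in controls 1 and 2, the 2 lowest of the 10 libraries, against 14940 to 46822 in the other 8. Mir122 fills part of the denominator of these values, and per 1000000 reads of the whole library the testis list of control 2, at 1427, stood above control 1 (1076) and DCHP library 2 (1156), and its epithelial list, at 953, above controls 1 and 4 and DCHP library 2 (540, 604 and 800). The blood list on that scale was at 115 in control 2 and at 4.38 to 16.0 in the other 9 libraries, with 15.4 in control 1. The part of liver, blood or other RNA in the miR-30e-5p level was not tested.

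**Figure D3:**
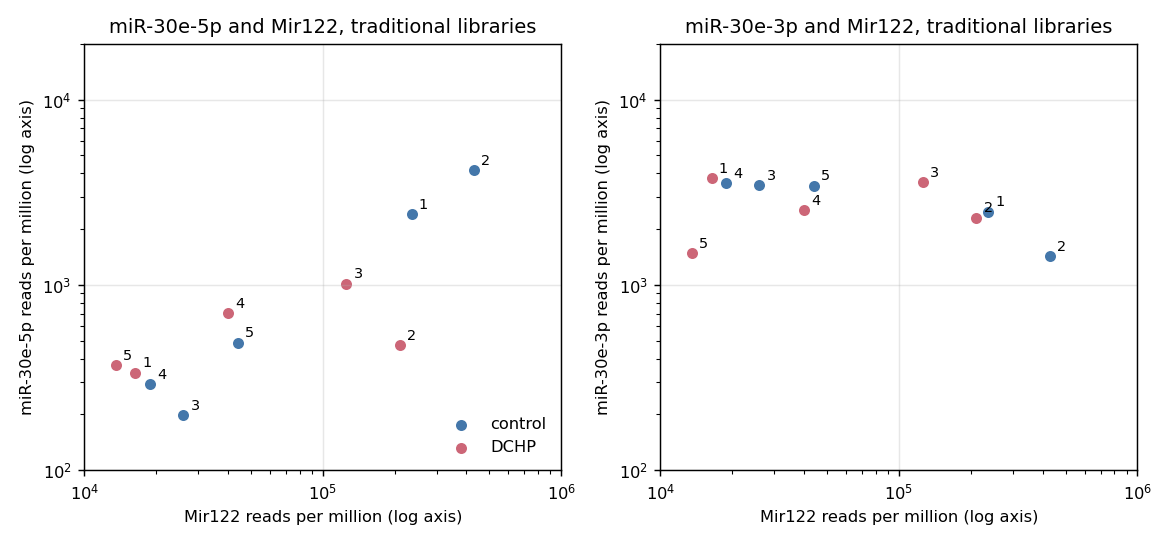
miR-30e-5p (left) and miR-30e-3p (right) against Mir122 in the 10 traditional libraries, all in RPM (reads per 1000000 hairpin reads of 20 to 24 nt) on log axes, with 1 numbered point per library. Controls 1 and 2 stand at the upper right for miR-30e-5p, with 2411 and 4155 RPM, and at 2480 and 1431 for miR-30e-3p.

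The first comparison asked whether DCHP changed the family. No miR-30 arm passed the threshold (edgeR quasi-likelihood test, a more than 2-fold difference with a Benjamini-Hochberg adjusted p under 0.1) in either method. The background was the same: in traditional libraries 0 of 376 arms passed (0%; 28 had an unadjusted p below 0.05, and DESeq2 called 0), and in PANDORA-seq libraries 0 of 110 (0%; 5 had an unadjusted p below 0.05, and DESeq2 called 1). All 10 miR-30 arms could be tested in traditional libraries, with a median log2 difference of 0.03 beside 0.21 over all arms. With TMM, a scaling that sets the bulk of the arms level, these medians were -0.32 and -0.12. In PANDORA-seq libraries only 5 of the 10 had 10 reads in at least 3 libraries of each group, and their median was 0.52 beside 0.05. On the narrow total these medians were 0.38 and -0.05.

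The family as a whole was at 2.42% ± 0.51 of hairpin reads in traditional DCHP libraries, beside the 2.50% of the controls, a log2 difference of -0.07. With 1 library left out the difference ran from -0.14 to 0.05, so its direction depended on single libraries. In PANDORA-seq libraries the family was at 0.372% ± 0.171 in controls (n = 4) and 0.491% ± 0.247 after DCHP (n = 5), a log2 difference of 0.36. This was 0.09 to 0.63 when 1 library was left out, 0.23 on the narrow total and 0.60 per hairpin read of every length. These PANDORA-seq values came from 67, 246, 326 and 322 family reads in the controls and 218, 201, 216, 361 and 728 in the DCHP libraries, so each group had a library with far fewer or far more reads than the rest.

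miR-30e-5p had the lowest unadjusted p of the 10 arms in traditional libraries. It was lower after DCHP by a log2 difference of -1.38 (SE 0.72, adjusted p = 0.599, edgeR). The 5 DCHP values lay inside the range of the controls. Without control 2 the log2 difference was -0.55 (adjusted p = 0.832, edgeR). Controls 1 and 2, left out together after the data were seen, hold the 2 highest miR-30e-5p levels, so the turn to 0.83 without them is fixed by that choice and is no test. With all libraries the log2 difference was -1.99 with TMM, -2.14 per total read and -2.02 with DESeq2, and did not pass with any of these (adjusted p = 0.601, 0.611 and 0.341). With no filter on low counts the arm passed the threshold (adjusted p = 0.0503, edgeR). In that setting, which also tests arms with few reads, 13 traditional arms were called in all, against 0 of 376 with the filter.

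Of the other arms in traditional libraries, miR-30b-5p differed by 0.84 (SE 0.45, adjusted p = 0.646, edgeR), and by 0.30 to 1.07 when 1 library was left out. Its values were 113, 175, 115, 77.9 and 96.5 RPM in controls and 154, 60.2, 183, 173 and 464 after DCHP. The fifth DCHP library was above the rest and the groups overlapped. The epithelial miRNA list was also highest in that library, at 46822 RPM, but the fourth, at 43628, had a miR-30b-5p level of 173. Their part in the result was not tested. miR-30c-5p differed by 0.45 (SE 0.27, adjusted p = 0.662, edgeR). Its values were 1494, 1164, 1511, 1313 and 1775 in controls and 1796, 1750, 2033, 2590 and 1764 after DCHP, with 1 control value inside the DCHP range. The remaining 7 arms had log2 differences from -0.19 to 0.17.

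In PANDORA-seq libraries miR-30a-5p was at 148, 1682, 191 and 209 RPM in controls and 80.9, 746, 222, 1914 and 3667 after DCHP. The log2 difference was 1.27 (SE 1.09, adjusted p = 0.799, edgeR), and the DCHP values lay on both sides of the control values. On the narrow total it was 0.84 (SE 0.74, adjusted p = 0.943, edgeR). Per hairpin read it was 2.83 without control 2 (adjusted p = 0.395, edgeR) and 0.42 without DCHP library 5 (adjusted p = 0.958, edgeR). In DCHP libraries 4 and 5, which had the 2 highest values, the epithelial list was at 11464 and 20868 RPM, against 1781 to 3333 in the other 7 PANDORA-seq libraries. Its part in the result was not tested. miR-30d-5p differed by 0.85 (SE 0.61, adjusted p = 0.79, edgeR). Control 2, the control richest in Mir122, stood above the other controls for both arms. DCHP library 2, with Mir122 at 82467 RPM against 81412 in control 2, was at 746 for miR-30a-5p and 1259 for miR-30d-5p. Both lay within the range of the other DCHP libraries, and a link with Mir122 was not tested. Whether DCHP acted differently in the 2 methods was tested as an interaction. The fit took all libraries as independent, although same-numbered libraries of the 2 methods deviated together. It covered 104 arms. None passed (0%; 1 had an unadjusted p below 0.05, edgeR, and DESeq2 called 0), and the 5 miR-30 arms tested had differences of 0.05 to 1.30, with an adjusted p of 0.936 for each (edgeR). The highest of these, for miR-30a-5p, was 2.86 without PANDORA-seq control 2 and 0.45 without PANDORA-seq DCHP library 5.

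The ratio of 5p to 3p reads was compared in the same way. It was tested with limma on the log2 ratio for genes with at least 10 reads on each arm in at least 4 libraries. These were 108 genes in traditional libraries, of which 0 passed an adjusted p below 0.1 (0%; 5 had an unadjusted p below 0.05), and 13 genes in PANDORA-seq libraries, of which 0 passed (0%; 2 had an unadjusted p below 0.05). For the 6 miR-30 genes in traditional libraries the log2 ratio differed by -0.48 (Mir30e, SE 0.96) to 0.52 (Mir30c-2, SE 0.39). For Mir30a, the 1 member tested in PANDORA-seq libraries, it differed by 1.03 (SE 1.12, limma adjusted p = 0.756), and by 0.44 without DCHP library 5 to 1.79 without DCHP library 1.

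The second comparison asked how the method of library preparation changed the family. Unless a block is named, its fits took all libraries as independent, although same-numbered libraries of the 2 methods deviated together. PANDORA-seq recovered less miR-30 per hairpin read. The 5 arms with at least 10 reads in at least 3 libraries of both groups all passed the threshold in the control libraries, and all 5 were lower in PANDORA-seq, beside 51% of 292 arms that were called lower, 13.4% that were called higher and 64.4% that were called in either direction. Among the 81 arms that met the same minimum in both groups, 53.1% were called lower, 33.3% higher and 86.4% in either direction. miR-30a-5p had a log2 difference of -3.57 (SE 0.74, adjusted p = 0.00118, edgeR), which was -5.13 without PANDORA-seq control 2. miR-30d-5p had one of -3.25 (SE 0.48, adjusted p = 7.17e-05, edgeR). The others were miR-30c-5p at -2.71 (-3.33 without PANDORA-seq control 2), miR-30e-3p at -2.43 and miR-30a/d-3p at -2.23. Their median, -2.71, stood beside a median of -1.80 over all arms. The other 5 arms (miR-30b-5p, miR-30b-3p, miR-30c-1-3p, miR-30c-2-3p and miR-30e-5p) entered the test through their traditional reads, and no call was read from them. In the DCHP libraries the same 5 arms were called, beside 51.4% of 319 arms called lower, 14.1% called higher and 65.5% called in either direction (54.9, 29.4 and 84.3% of the 102 arms that passed in both groups), with log2 differences of -2.64 to -2.17 and a median of -2.27 beside -1.51. Without PANDORA-seq DCHP library 5 miR-30a-5p was at -3.13 there. Calls of the 3p arms were lost in some settings. With exact matches only, miR-30a/d-3p did not pass in controls (-0.80, adjusted p = 0.193, edgeR) or in DCHP libraries (-0.81, adjusted p = 0.141, edgeR), and in DCHP libraries miR-30e-3p did not either, since its difference was under 2-fold (-0.94, adjusted p = 0.0836, edgeR). In DCHP libraries miR-30a/d-3p also fell short of a 2-fold difference with TMM (-0.96) and DESeq2 (-0.89), and miR-30e-3p with DESeq2 (-0.95).

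**Figure D4:**
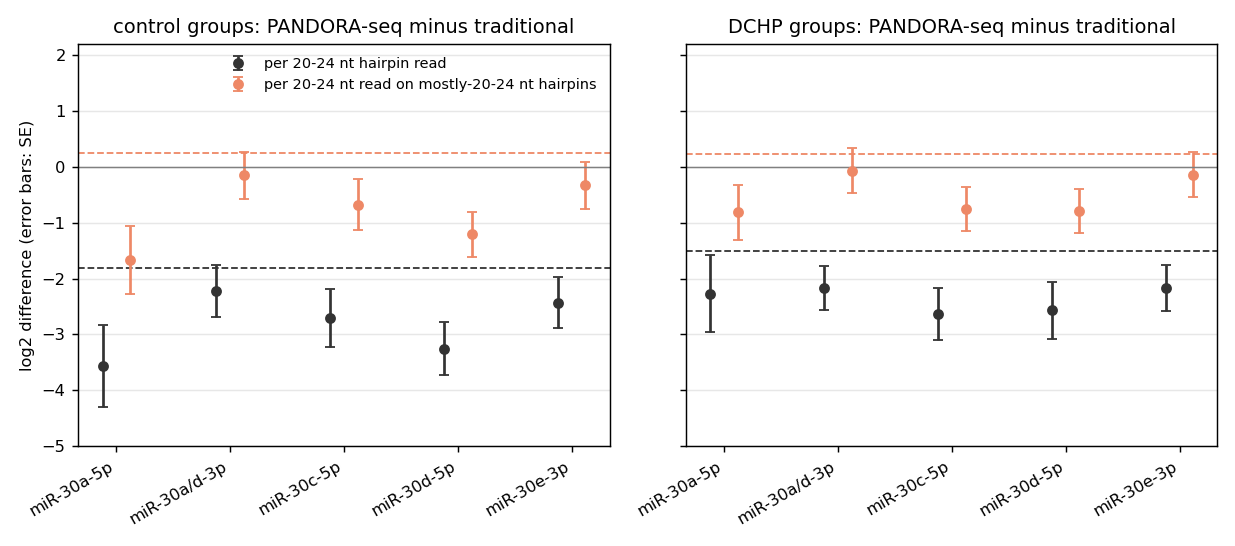
log2 difference of PANDORA-seq from traditional libraries, with its standard error, for the 5 miR-30 arms with enough reads, in control (left) and DCHP libraries (right) and on both scales, with dashed lines at the medians over all arms. The arms were at -3.57 to -2.17 per 20 to 24 nt hairpin read and at -1.67 to -0.07 on the narrow total.

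The size of the difference depended on what the reads were divided by. With Mir6240 and Mir122 left out of the library size, an alternative chosen after seeing the data, the 5 arms were at -2.64 to -1.14 in controls and -1.63 to -1.05 in DCHP libraries, and all 5 were called in both. On that scale 112 of 292 arms were called in either direction in controls and 106 of 319 in DCHP libraries. These counts, and the shares on the narrow total below, include arms that met the read minimum through 1 method alone. They are a rough background only. On the narrow total the median over all arms moved from -1.80 to 0.25 in control libraries, and the arms called higher rose from 20.7% of the called arms to 81.3%. With TMM the higher arms were 48.2% of those called. On the narrow total miR-30a-5p was still lower in PANDORA-seq controls by a log2 difference of -1.67 (SE 0.61, adjusted p = 0.0546, edgeR), and miR-30d-5p by -1.21 (SE 0.41, adjusted p = 0.0362, edgeR), beside 5.82% of 292 arms that were called lower on that scale, 25.3% called higher and 31.2% called in either direction. The other 3 arms differed by -0.68 to -0.15 and did not pass. In the DCHP libraries 0 of the 5 passed on the narrow total, with differences of -0.81 to -0.07, beside 21.6% of 319 arms called in either direction, 21% higher and 0.627% lower, and the median over all arms was 0.24 in place of -1.51. The family share of the narrow total was 2.54% ± 0.22 in traditional and 1.55% ± 0.38 in PANDORA-seq control libraries, and 2.46% ± 0.51 and 1.80% ± 0.33 in the DCHP libraries.

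The rarer arms reached the limit of the PANDORA-seq depth. miR-30b-5p had no read in the 4 PANDORA-seq controls. A count of 0 over the group allows up to 3 reads, which places it at least 10.2-fold lower than in traditional controls per hairpin read, or at least 2.40-fold lower on the narrow total. In PANDORA-seq DCHP libraries it had 1, 1, 0, 1 and 35 reads. The 35 reads were all in library 5, where the traditional library of the same number also had the highest miR-30b-5p level. miR-30c-1-3p also had no read in the PANDORA-seq controls, but the limit lay above its level in traditional controls, so a difference was not detectable at this depth. These limits cover counting error only.

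The methods also differed in arm balance for Mir30a. In PANDORA-seq controls 1 to 4 the 5p share of Mir30a was 16.1, 51.1, 9.67 and 9.82%, from 31, 133, 196.5 and 193.5 reads. In the traditional controls of the same numbers it was 54.9, 72.8, 34.0 and 39.5%, so the PANDORA-seq library was lower in each of the 4 pairs. The log2 ratio of 5p to 3p reads was lower by a difference of -2.05 (SE 0.74, limma adjusted p = 0.0382; -2.79 without PANDORA-seq control 2), beside 28.6% of 77 genes called lower, 18.2% called higher and 46.8% called in either direction. The call was lost without PANDORA-seq control 3 (limma adjusted p = 0.102) or control 4 (limma adjusted p = 0.127). With the library number as a block the difference was -2.17 (limma adjusted p = 0.00181). Many genes in this comparison had arms with no PANDORA-seq read, where the ratio depends on the added pseudocount, so Mir30b, Mir30c-1 and Mir30d were not read here. The shares over the 77 genes, and over the 89 genes of the DCHP libraries below, include such genes and are a rough background only.

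In the DCHP libraries the 5p share of Mir30a in PANDORA-seq was 4.92, 34.4, 17.9, 57.8 and 70.4%, against 46.0, 43.4, 48.7, 57.01 and 61.1% in traditional libraries 1 to 5. Libraries 1 to 3 were lower in PANDORA-seq, library 4 was slightly higher, and library 5 was higher, at 70.4% against 61.1%. The difference in log2 ratio was -1.19 (SE 0.80, limma adjusted p = 0.279), beside 37.1% of 89 genes called, 20.2% lower and 16.9% higher, and without PANDORA-seq DCHP library 5 it was -1.78 (limma adjusted p = 0.0531) and without library 1 it was -0.42 (limma adjusted p = 0.627). An exact binomial 95% interval for library 1, with 6 of 122 Mir30a reads on the 5p arm, ran from 1.83 to 10.4%, and for library 5, with 323 of 459, from 66.0 to 74.5%. Mir30e also varied among PANDORA-seq libraries, at 25, 64.1, 5.93 and 5.22% in controls. They rest on 4, 37.5, 4 and 3 reads of the 5p arm, and no test was read from them.

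The ends of the reads distinguished the members further. The commonest first base matched the RefSeq start in all 7 arms that could be compared. The commonest reads were not always the mature sequence, and they are printed here as they stand in the files, with T for U and with bases that go beyond the RefSeq mature sequence in capitals.
miR-30a-5p: tgtaaacatcctcgactggaagC
miR-30e-5p: tgtaaacatccttgactggaagC
miR-30c-5p: tgtaaacatcctacactctcag
miR-30a-3p: ctttcagtcggatgtttgcag
miR-30e-3p: ctttcagtcggatgtttacag
miR-30c-2-3p: ctgggagaaggctgtttactc
The commonest miR-30a-5p read ended 1 base past the mature form and made up 48.2% of the arm's reads in traditional and 46.4% in PANDORA-seq libraries. The corresponding miR-30e-5p read made up 61.8 and 56.6%. The commonest miR-30c-5p read stopped 1 base short of the mature end, with 62.8 and 61.0%, and so did those of miR-30a-3p, with 46.8 and 47.0%, of miR-30e-3p, with 58.2 and 52.9%, and of miR-30c-2-3p, with 50.6 and 43.6%. In all of these both methods gave the same commonest read.

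2 further reads are shown because their shares differed between the methods. The first carries a final T that the Mir30e hairpin lacks at that place, and the second starts 1 base later than mature miR-30a-3p, which shifts its seed.
miR-30e-3p with a final U: ctttcagtcggatgtttacagT
miR-30a-3p starting 1 nt later: tttcagtcggatgtttgcag
The first was 13.3% of miR-30e-3p reads in traditional and 24.1% in PANDORA-seq libraries, and the second 12.5 and 16.0% of miR-30a-3p reads. These measures were chosen because the methods differed in them, so their values are a description, with no test.

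All miR-30e-3p reads with a final U that the hairpin lacks made up 16.7, 23.8, 34.6 and 29.4% of the arm in PANDORA-seq controls 1 to 4, from 12, 21, 63.5 and 54.5 reads, and 13.1, 12.6, 15.0, 13.9 and 14.8% in traditional controls. The groups did not overlap, with means of 26.1% ± 7.70 (n = 4) and 13.9% ± 1.02 (n = 5). In DCHP libraries the means were 20.4% ± 4.58 and 14.2% ± 2.02 (n = 5 each), and the ranges, 13.5 to 24.6% and 11.4 to 17.1%, overlapped. miR-30a-3p reads with such a U were at 10.6% ± 3.78 and 7.19% ± 0.58 in controls (n = 4 and 5) and at 11.1% ± 4.91 and 7.40% ± 0.56 in DCHP libraries (n = 5 each). The ranges overlapped, at 7.45 to 15.4% and 6.37 to 7.95% in controls. In DCHP libraries they also overlapped, at 4.92 to 16.2% and 6.81 to 8.28%.

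The later start of miR-30a-3p was found on 21.5 to 29.3% of reads in PANDORA-seq controls and 18.3 to 20.9% in traditional controls, with means of 24.1% ± 3.54 (n = 4) and 19.3% ± 1.04 (n = 5). In DCHP libraries the means were 23.2% ± 3.59 and 19.4% ± 1.22 (n = 5 each), and the ranges, 17.1 to 25.7% and 17.9 to 20.6%, overlapped.

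Mean read length was tested with limma for arms with at least 10 reads in each library compared. In controls miR-30a/d-3p reads were longer in PANDORA-seq by 0.14 nt (SE 0.04, limma adjusted p = 0.0301), beside 32.8% of 64 arms called, 26.6% longer and 6.25% shorter. In DCHP libraries the same arm differed by 0.04 nt and did not pass (SE 0.04, limma adjusted p = 0.476). In controls miR-30e-3p differed by 0.14 nt (SE 0.07, limma adjusted p = 0.186), and without PANDORA-seq control 2 by 0.22 nt (limma adjusted p = 0.00108). In DCHP libraries miR-30e-3p reads were longer by 0.15 nt (SE 0.03, limma adjusted p = 0.0104), beside 26.1% of 69 arms called, 21.7% longer and 4.35% shorter. With exact matches only, which leaves out reads with a base the hairpin lacks, that difference was 0.08 nt and did not pass (limma adjusted p = 0.277).

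**Figure D5:**
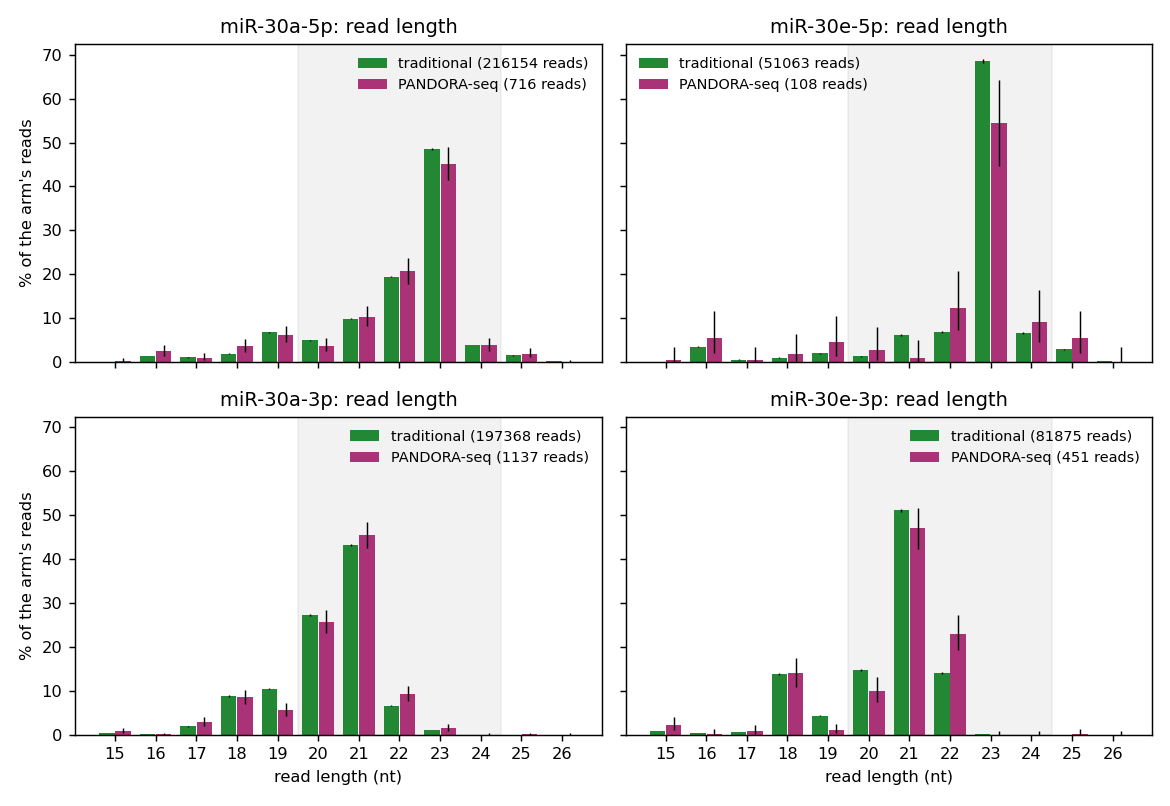
Share of an arm's reads at each length, in percent, for the 5p and 3p arms of Mir30a and Mir30e in pooled traditional and PANDORA-seq libraries, with exact binomial 95% intervals and the 20 to 24 nt range shaded. Both 5p arms peak at 23 nt and both 3p arms at 21 nt, and the 22 nt bar of miR-30e-3p is taller in PANDORA-seq.

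The arms were last compared with other miRNAs by Pearson's r of log2 levels over libraries, as a description, since all levels of a library share its depth and its denominator. The summed miR-30 5p arms of traditional libraries (n = 10, 224 arms ranked) were most like the 5p arm of Mir26a-1 and Mir26a-2 (r = 0.809), the shared 3p arm of the Mir199 genes (0.767), Mir31 5p (0.766), Mir101a and Mir101c 3p (0.751) and Mir93 5p (0.750). The median over the ranked arms was -0.153. In PANDORA-seq libraries (n = 9, 59 arms) they were the 5p arms of Mir21a and Mir21b (0.984) and of Mir26a-1 and Mir26a-2 (0.917), Mir143 3p (0.895), an arm group with Mirlet7i (0.852) and one with Mirlet7g (0.850), beside a median of 0.332. On the narrow total these 5 r values were 0.962, 0.812, 0.759, 0.571 and 0.525 and the median was -0.396, so in PANDORA-seq they depended on the denominator.

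The other lists were chosen after their values were seen. The summed 3p arms of traditional libraries were most like Mir182 5p (0.950), Mir184 3p (0.945), Mir100 5p (0.928), Mir10b 5p (0.919) and Mir151 3p (0.917), with a median of 0.191. miR-30e-5p was most like Mir126a 3p (0.984), Mir27b 3p (0.984), Mir22 3p (0.981), a group of arms that includes Mir378b and Mir378d (0.975) and the shared 5p arm of Mir194-1 and Mir194-2 (0.973), with a median of -0.360. In traditional libraries the 3 lists of leading arms had no arm in common. In PANDORA-seq libraries the 3p arms were led by the 5p arms of Mirlet7f-1 and Mirlet7f-2 (0.793), Mir182 5p (0.769), Mir10a 5p (0.728), Mir871 3p (0.681) and Mir10b 5p (0.677), with a median of 0.268. On the narrow total these were 0.251, 0.614, 0.851, 0.861 and 0.845, with a median of 0.478. miR-30e-5p was led there by the 5p arms of Mir26a-1 and Mir26a-2 (0.898), Mir122 5p (0.878), Mir99a 5p (0.848), the arm group with Mirlet7g (0.797) and the 5p arms of Mir125b-1 and Mir125b-2 (0.775), with a median of 0.17. On the narrow total these were 0.878, 0.837, 0.461, 0.802 and 0.514, with a median of -0.102. miR-30e-5p was highest in traditional controls 1 and 2, and what share of these r values rests on them was not tested.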

How the data were processed

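Per the submitters' notes, reads were processed against mm10, and per the methods they were analysed with SPORTS1.1. The files deposited by the authors list distinct reads with whole-number counts, unnormalized. In the labels, libraries carry numbers 1 to 5 (1 to 4 for PANDORA-seq controls). Reads were matched to 2198 of 2202 GENCODE hairpins (4 overlap tRNA genes), and arms of which 1 shared most of its reads with another were merged. Arms needed 10 reads in 4 libraries. Levels were tested with edgeR 4.0.16 (quasi-likelihood, R 4.3.3), 5p to 3p ratios (pseudocount 0.5) and read lengths with limma 3.58.1, all adjusted by Benjamini-Hochberg over all arms tested. Calls needed an adjusted p below 0.1 and, for levels, a fold change above 2. DESeq2 1.42.0, TMM, other library sizes, filters, read lengths, exact matches, left-out libraries and a replicate block were alternatives. Scripts were tested on simulated data. Levels over members and their family sums carry no p.

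Text names every miR-30 arm, and for likeness the 5 other arms with the highest r among those with at least 10 reads in every library of the method. Members and lists were chosen with earlier results of these data known. Same-numbered libraries of the 2 methods deviated together (r = 0.231 to 0.785 over 94 arms in 9 pairs). PANDORA-seq DCHP library 5 (r = 0.488) was more like a traditional library of another number, and each of the others was most like its own number. The numbers were therefore taken to pair the methods, which the labels do not state. The study states that sperm RNA of control and exposed sires went through both methods. Tests between the methods left the pairing out, except where a block is named. Between control and DCHP libraries r was -0.422 to 0.329, and the numbers do not pair them. No 2 of 36 replicate pairs agreed within sampling noise (chi-square per degree of freedom at least 24.4). Library depth was 21588335 to 56506344 reads. Reads without molecular identifiers are not independent molecules.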

Additional observations from a re-analysis of the deposited data

Results flagged for a closer look

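Of 52 groups of 4 or 5 values examined, 4 held a library far from the rest of its group, and chance gives about 1 in 20. PANDORA-seq control 2 stood apart in 3 of them. Its miR-30a-5p level was 1682 RPM, against 148 to 209 in the other 3 controls. Its miR-30c-5p level was 470.0, against 120 to 178, from 19 reads against 6 to 13. On the narrow total that level was 1587 reads per 1000000, against 514 to 1032, so it stood less far apart there. The 5p share of Mir30a was 51.1%, against 9.67 to 16.1%. In this library Mir122 was at 81412 RPM, against 5565 to 12142 in the other 3. PANDORA-seq DCHP library 2, with Mir122 at 82467, had 746 RPM of miR-30a-5p, 326 of miR-30c-5p and a Mir30a 5p share of 34.4%. Each of these lay within the range of the other DCHP libraries. The part of Mir122 in the values of either library was not tested. In PANDORA-seq DCHP library 3 the miR-30e-3p level was 348 RPM, below the 629 to 701 of the other 4, from 33 reads. Mir6240 took 73.6% of the 20 to 24 nt hairpin reads of that library, the highest share of the 9 PANDORA-seq libraries. On the narrow total, which leaves Mir6240 out, the same library was at 3097 reads per 1000000, second highest of the 5, so the low value depends on the denominator.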

How the results depend on the processing

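Leaving out 1 library at a time gave 143 to 192 arms called between the methods in controls and 174 to 234 in DCHP libraries, and 0 to 1 genes whose 5p to 3p ratio was called with DCHP in either method. With DCHP, DESeq2 called 1 arm in PANDORA-seq libraries, and with no filter on low counts 5 PANDORA-seq and 13 traditional arms were called. Between the methods in controls, 112 arms were called with TMM, 91 on the narrow total, 79 with exact matches only, 363 with no filter, 112 without Mir6240 and Mir122 in the library size and 70 with 10 reads in at least 3 libraries of each group. In DCHP libraries the counts were 109, 69, 63, 378, 106 and 86, and 102 with DESeq2. The library size without Mir6240 and Mir122, the filters on each group and leaving out traditional controls 1 and 2 were chosen after seeing the data. For the 5p to 3p ratio with DCHP in PANDORA-seq libraries, 2 genes were called with a pseudocount of 1, 2 with exact matches only and 1 with the replicate block. For that ratio between the methods, 110 genes were called in controls with at least 1 read in each arm, 56 with reads of 18 to 26 nt and 6 with 10 reads in each arm in at least 3 libraries of each group, and in DCHP libraries 137 with 1 read, 54 with a pseudocount of 1 and 7 with 10 reads. Read length gave 33 called arms in controls and 33 in DCHP libraries with reads of 18 to 26 nt. The family's log2 difference between the methods in controls was -8.09 per total read, -5.63 per hairpin read of every length, -0.74 on the narrow total, -1.46 with exact matches only and -3.39 with reads of 18 to 26 nt, and in DCHP libraries -7.51, -4.96, -0.44 and -1.12 in the first 4. Apart from the changes of denominator, the cause of these shifts was not tested.

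Differences that changed direction passed no test in the settings where they did so. With DCHP in traditional libraries, TMM gave log2 differences of -0.23 for miR-30b-3p, -0.25 for miR-30c-1-3p and -0.18 for miR-30d-5p, DESeq2 gave -0.22, -0.29 and -0.17, the library size without Mir6240 and Mir122 gave -0.015 and -0.087 for the first 2, and miR-30c-1-3p was at -0.25 per total read and -0.0080 with exact matches only. Without traditional controls 1 and 2 the values were 0.24 for miR-30a-5p, -0.10 for miR-30b-3p and 0.83 for miR-30e-5p. In PANDORA-seq libraries miR-30a/d-3p was at 0.018 per hairpin read of every length. The interaction of method and DCHP was -0.066 for miR-30c-5p on the narrow total and -0.076 with exact matches only, where miR-30a/d-3p was at -0.010. With exact matches only the 5p to 3p ratio of Mir30d with DCHP was at -0.30, and the read length differences in DCHP libraries were -0.025 nt for miR-30a/d-3p and -0.020 nt for miR-30d-5p, which in controls was at 0.14 nt with reads of 18 to 26 nt. Leaving out 1 library, or traditional controls 1 and 2 together, the traditional log2 differences with DCHP ran from -0.13 to 0.24 for miR-30a-5p, -0.10 to 0.23 for miR-30b-3p, -0.11 to 0.28 for miR-30c-1-3p, -0.43 to 0.034 for miR-30c-2-3p, -0.35 to 0.088 for miR-30e-3p and -1.68 to 0.83 for miR-30e-5p. The ratio of Mir30a ran from -0.058 to 0.54 and that of Mir30e from -1.06 to 0.36. The interaction ran from -0.16 to 0.23 for miR-30a/d-3p and from -0.22 to 0.70 for miR-30c-5p, and the length difference of miR-30d-5p in DCHP libraries from -0.041 to 0.062 nt. With the replicate block, which pairs the methods, 189 arms were called in controls and 223 in DCHP libraries, and no miR-30 call changed. The replicate number does not pair control with DCHP libraries. There the block gave miR-30e-5p a log2 difference of -0.55. PANDORA-seq depth, 67 to 728 family reads a library, limits the values of its rarer arms.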
